A study of Oryza sativa with 6 samples.

Results

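The genes described here were picked by name: probe sets assigned to exactly 1 gene whose symbol or synonym begins with RPN or RPT and a number, the names of the regulatory particle subunits of the 26S proteasome. The rule found 9 genes with 11 probe sets among 57258 non-control probe sets of the Affymetrix Rice Genome Array, and all 9 were matched through a synonym. Only 6 of the 9 genes are proteasome subunits, namely the ATPase genes OsRPT5a (LOC4331050), RPT1A (LOC4330943, also OsRPT1b) and RPT1B (LOC4340376, also OsRPT1) and the non-ATPase genes OsRPN11 (LOC4324379), OsRPN5 (LOC4334802) and OsRPN7 (LOC4336206). The other 3 go against the name of the group. Their further synonyms (RPN-IA, RPN-IB, RPN-II, OST1A and OST1B) are those of ribophorins, subunits of the oligosaccharyltransferase that attaches sugars to proteins in the endoplasmic reticulum, so LOC4338348, LOC107275757 and LOC4324876 are kept apart below as RPN-IA, RPN-IB and RPN-II.

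RNA came from embryonic axes of mature Nipponbare rice seeds aged at 45 °C (3 arrays) or at 40 °C (3 arrays), both for 14 days at 85% relative humidity. Seeds of both groups had first spent 3 days at 25 °C and 85% relative humidity, and afterwards spent 3 days at 25 °C and 32% relative humidity. The labels disagree on the warm step, since their description has 15 days where the protocol has 14, and neither could be preferred. Such controlled deterioration mimics seed ageing, and the submitters describe 40 °C as costing seed vigour and 45 °C as costing germination. Seeds kept at 25 °C were not analysed here, so each change below is the difference between a harsher and a milder ageing treatment. Whether the 3 samples of a group were separate seed lots is not stated; the spread that p-values measure may therefore be a technical one.

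The 26S proteasome degrades proteins that carry ubiquitin chains. Its barrel-shaped 20S core particle holds the proteolytic sites, and the 19S regulatory particle caps the barrel, binds the tagged protein, removes the ubiquitin and threads the unfolded chain into the core. The base of the cap carries a ring of ATPases, the RPT subunits, which unfold and push the substrate, while the RPN subunits include the lid. All 3 proteasome RPN genes measured here encode lid subunits. Mature seeds store transcripts that can be translated on imbibition.

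Values are log2 expression, 1 per probe set and array. All 11 probe sets passed the minimum, a mean log2 value of 4 over the arrays, together with 22214 probe sets in all. The median log2 change of all tested probe sets, 45 °C minus 40 °C, was -0.17, and 64.4% of them were below 0. It was -0.21 with a minimum of 6, but 0.08 over all 57258 non-control probe sets. Its sign thus depended on the level of the probe sets included. The median of the tested probe sets became 0.09 when arrays were median-centred, 0.01 when they were quantile-normalized again and -0.02 under cyclic loess. No probe set passed limma at a Benjamini-Hochberg adjusted p of 0.05, and 4256 (19.2%) had an unadjusted p under 0.05, of which 71.9% were lower at 45 °C, against 24.7%, 42.0% and 53.5% under these scalings. Replicate 2 at 40 °C deviated within its group. It correlated at 0.935 at most with replicates 1 and 3, which correlated with each other at 0.981. The 45 °C arrays correlated with each other at only 0.939 to 0.946, so among the correlations 0.981 was the unusual value. The control transcripts of rice showed their largest 3-prime minus 5-prime difference on replicate 2 at 40 °C, 2.99 log2 units. This difference was 1.66 to 2.03 on the 45 °C arrays and 1.74 and 1.92 on the other 40 °C arrays. The median level of 5 embryo marker genes was 12.63 to 12.70 at 45 °C and 12.69 to 12.91 at 40 °C, with a median log2 change of -0.12. Of these, 4 were lower and 1 higher at 45 °C, with changes from -0.92 (OSH1) to 0.05 (RAB21). RAB16D, at -0.52 ± 0.11 (SE), was the 1 with a limma unadjusted p under 0.05, and its groups did not overlap. The median level of 8 endosperm markers was 6.99 to 7.95 at 45 °C and 7.05 to 7.88 at 40 °C, of which RA14 (11.22 at 45 °C, 11.23 at 40 °C) and GBSS-I (10.76 at 45 °C, 10.39 at 40 °C) were the brightest and GLUB-4 and RA5 lay under the minimum. Of the 6 endosperm markers tested 4 were higher and 2 lower at 45 °C, with a median log2 change of 0.39, none with an unadjusted p under 0.05, and the groups did not overlap in GBSS-I. GLUA-1 and GLUA-2 were higher only with replicate 2 at 40 °C. GLUA-1 was at 6.96 there, against 8.70 and 9.08 on the other 40 °C arrays and a 45 °C mean of 8.84. GLUA-2 was at 8.34, against 9.92 and 9.89, with a 45 °C mean of 9.79. RA14 was instead lower only with that array, at 11.25, against 11.06 and 11.37, with a 45 °C mean of 11.22. RA17 and GBSS-I stayed higher, and GLB lower, without it. The part of storage tissue transcripts in the results below was not tested.

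Among the ATPase genes, OsRPT5a had the most negative change and, at 45 °C, the smallest spread (SD 0.027). RPT5 is 1 of the ATPases of the base ring, and in yeast its C-terminal tail docks onto the core particle. Its log2 values were 8.74, 8.76 and 8.71 on the 45 °C arrays, against 9.37, 9.73 and 9.49 on the 40 °C arrays. The groups did not overlap, and the 45 °C arrays differed from each other by less than 0.1 log2 unit. The log2 change was -0.79 ± 0.15 (SE), a 1.73-fold lower level at 45 °C, with a 95% confidence interval of -1.14 to -0.44 and a limma adjusted p of 0.163. By unadjusted p it ranked 120 of the 22214 probe sets tested. Of the 4747 probe sets with a mean level from 8 to 11, 2.76% had a more negative change. In whole tissue, fewer cells of a type and less RNA per cell cannot be told apart.

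RPT1B and RPT1A encode copies of RPT1, another ATPase of the ring. RPT1B had log2 values of 8.30, 8.70 and 8.72 at 45 °C, against 8.99, 8.76 and 8.86 at 40 °C. The groups did not overlap, but the highest 45 °C array lay close under the lowest 40 °C array. The log2 change was -0.30 ± 0.18 (SE), with an interval of -0.71 to 0.12 and a limma adjusted p of 0.38. RPT1A had log2 values of 7.48, 7.36 and 6.86 at 45 °C, against 7.34, 5.41 and 7.45 at 40 °C. Here the groups overlapped, and replicate 2 at 40 °C lay 1.99 log2 units below the mean of the other 40 °C arrays. The log2 change of RPT1A was 0.50 ± 0.54 (SE), with an interval of -0.75 to 1.74 and a limma adjusted p of 0.615; without that array it was -0.17. The probe set of RPT1A is of the type whose probes may match other transcripts as well, so its signal may not come from this gene alone.

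**Figure D1:**
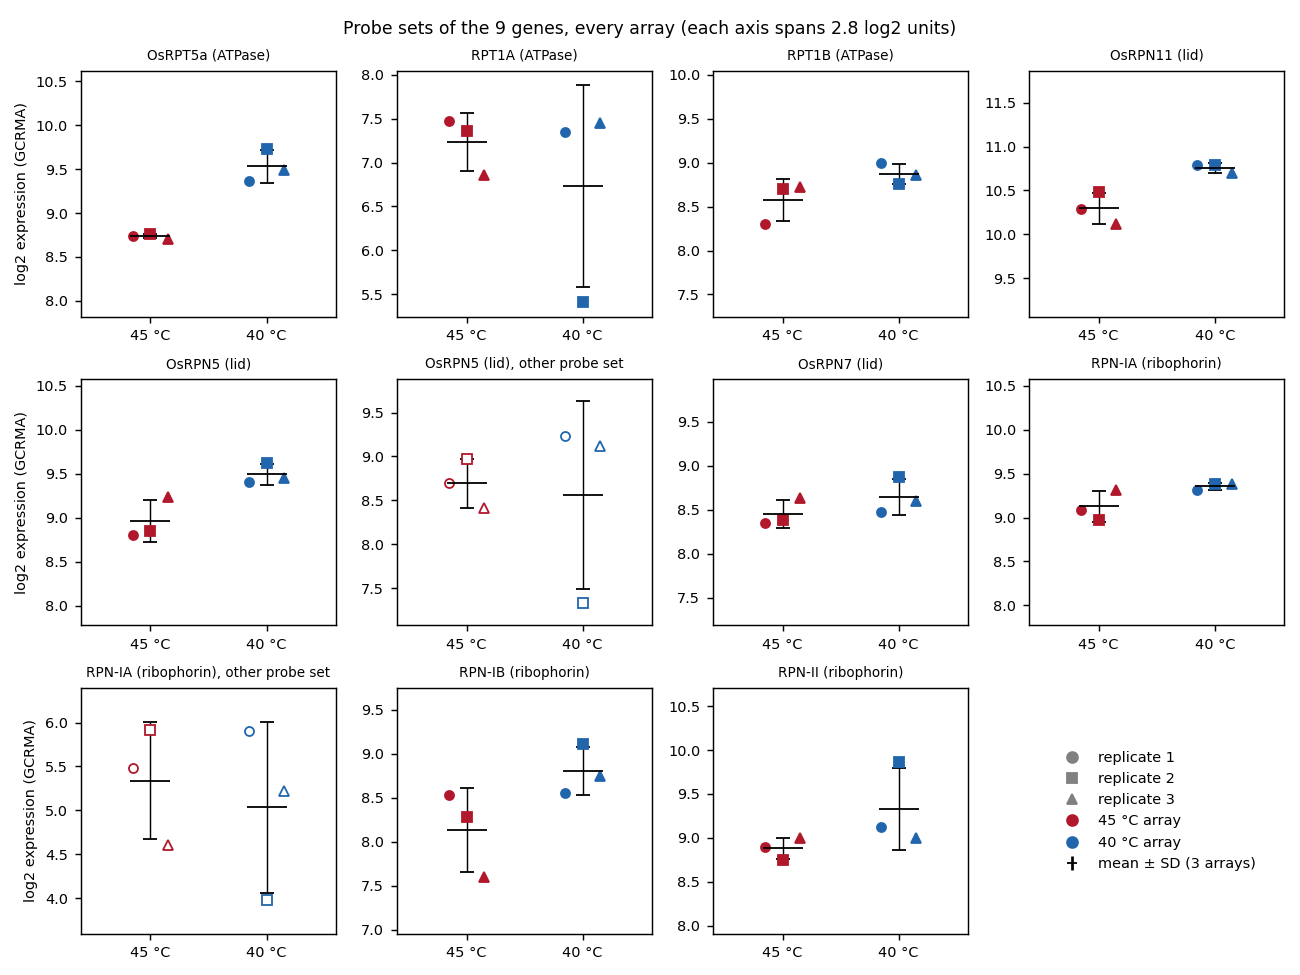
Log2 expression on each array (y axis, GCRMA) for the 11 probe sets of the 9 genes, with 45 °C arrays left of 40 °C arrays, marker shape giving the replicate number, bars giving mean ± SD of 3 arrays, and open markers showing the dimmer of 2 probe sets of a gene. The 45 °C arrays of OsRPT5a lie between 8.71 and 8.76, below all 40 °C arrays, while replicate 2 at 40 °C drops to 5.41 for RPT1A and to 7.33 for the dimmer probe set of OsRPN5.

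Among the lid genes, OsRPN11 encodes the metalloprotease that cuts ubiquitin chains off the substrate before it enters the core. Its log2 values were 10.29, 10.48 and 10.12 at 45 °C, against 10.79, 10.79 and 10.69 at 40 °C. The groups did not overlap, and the 40 °C arrays lay within 0.1 log2 unit of each other. The log2 change was -0.46 ± 0.13 (SE), a 1.37-fold lower level at 45 °C, with an interval of -0.76 to -0.16 and a limma adjusted p of 0.179. It ranked 919 of 22214 by unadjusted p.

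OsRPN5 and OsRPN7 encode scaffold subunits of the lid that share the PCI domain. The brighter probe set of OsRPN5 had log2 values of 8.81, 8.85 and 9.24 at 45 °C, against 9.40, 9.63 and 9.46 at 40 °C. The groups did not overlap, and replicate 3 was the 45 °C array nearest to the 40 °C arrays. The log2 change was -0.53 ± 0.17 (SE), a 1.44-fold lower level at 45 °C, with an interval of -0.92 to -0.13 and a limma adjusted p of 0.199. OsRPN7 had log2 values of 8.35, 8.38 and 8.63 at 45 °C, against 8.47, 8.88 and 8.60 at 40 °C. Its groups overlapped. The log2 change of OsRPN7 was -0.19 ± 0.18 (SE), close to the median of all tested probe sets, with a limma adjusted p of 0.555, and it turned to 0.06 after median centring and 0.02 after cyclic loess.

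Of the 6 subunit genes, each taken at its brightest probe set, 5 were lower at 45 °C and 1, RPT1A, was higher, beside 64.4% of all tested probe sets and 76.2% of those with a mean level from 8 to 11 that were lower. None passed the adjusted threshold, where 0% of all tested probe sets did. An unadjusted p under 0.05 was reached by 3 genes, OsRPT5a, OsRPN11 and OsRPN5, all lower at 45 °C, beside 13.8% of all tested probe sets that were lower at this threshold (17.5% of those with a mean level from 8 to 11) and 5.37% that were higher. The groups did not overlap in 4 genes, the same 3 and RPT1B, again all lower, beside 17.8% of all tested probe sets and 24.6% of those with a mean level from 8 to 11; a further 10.8% of all tested probe sets did not overlap and were higher. These counts include the difference between the groups in the median of the tested probe sets. After median centring 4 genes were lower and 2 higher, beside 42.4% of all tested probe sets that were lower, and the groups did not overlap in 1 gene, lower at 45 °C, beside 6.81%. With quantile normalization 5 were lower, beside 49.0%, and 2 did not overlap, beside 9.04% that were lower without overlap. With cyclic loess 4 were lower, beside 51.5%, and 3 did not overlap, beside 10.5% that were lower without overlap. Under each of these scalings only OsRPT5a of the 6 genes had an unadjusted p under 0.05, beside 4.83%, 6.71% and 8.09% of all tested probe sets that were lower at this threshold, while OsRPN11 and OsRPN5 no longer reached it. The median log2 change of the 6 genes was -0.38, against -0.17 for all tested probe sets and -0.19 for those with a mean level from 8 to 11. Without replicate 2 at 40 °C all 6 genes were lower, beside 62.6% of all tested probe sets, with a median of -0.40 against -0.14. The same 3 genes then had a limma unadjusted p under 0.05, beside 14.1% that were lower at this threshold. The groups did not overlap in 4 genes, all lower, beside 26.5% that were lower without overlap.

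ATPase and lid genes were not separated by their changes. The 3 RPT genes had changes from -0.79 to 0.50 with a median of -0.30, and the 3 lid genes from -0.53 to -0.19 with a median of -0.46. After median centring these medians were -0.04 for RPT and -0.20 for RPN, and when the probe sets of each gene were averaged they were -0.30 for RPT and -0.20 for RPN, which turned their order. The mean RPT level minus the mean RPN level, taken within each array so that a shift of the whole array cancels, was -0.97, -0.96 and -1.24 at 45 °C, against -0.99, -1.80 and -0.98 at 40 °C. On 4 arrays, spread over both temperatures, it lay between -0.99 and -0.96, with replicate 3 at 45 °C and replicate 2 at 40 °C below them. The group means were -1.06 ± 0.15 at 45 °C and -1.25 ± 0.47 at 40 °C (SD, n = 3 each), a difference of 0.20 that is smaller than the spread at 40 °C and that became -0.07 without replicate 2 at 40 °C. Counting the ribophorin genes as RPN, as their names would have it, gave 0.23.

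Single genes were also compared within arrays. OsRPT5a minus RPT1B, a difference of log2 values within an array, was 0.44, 0.06 and -0.01 at 45 °C, against 0.38, 0.97 and 0.63 at 40 °C, and the groups overlapped. OsRPT5a minus OsRPN11 was -1.55, -1.72 and -1.41 at 45 °C, against -1.42, -1.05 and -1.20 at 40 °C, overlapping by a narrow margin. These pairs were chosen after their values were seen, and neither difference separated the groups.

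**Figure D2:**
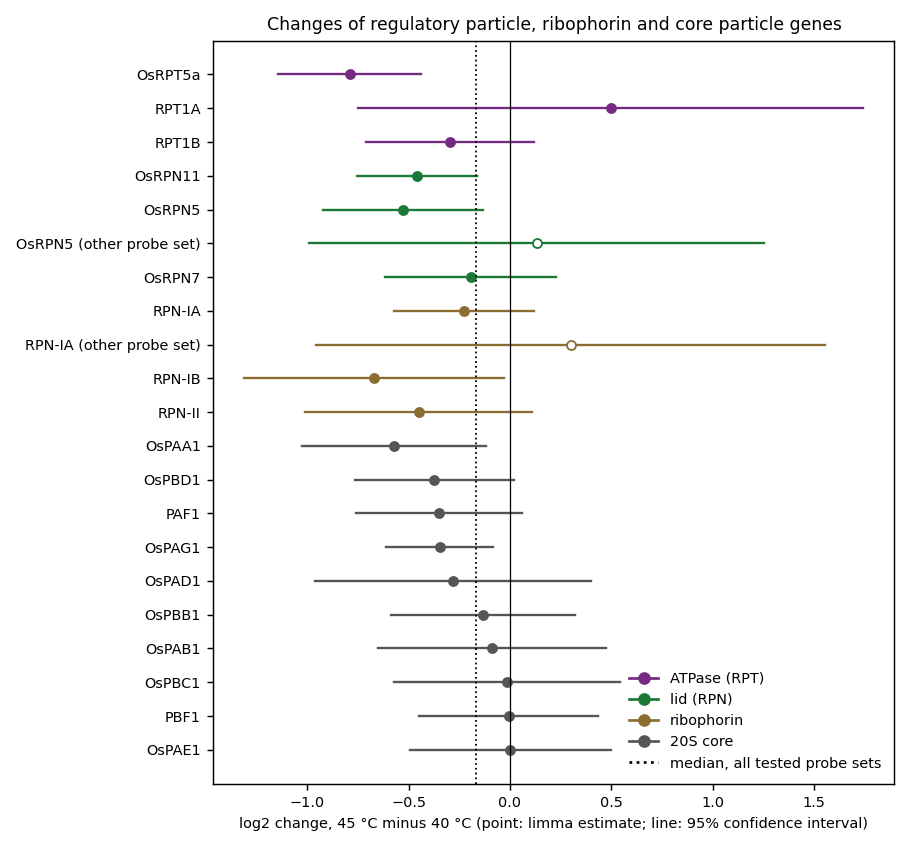
Log2 change, 45 °C minus 40 °C (x axis), with its limma 95% confidence interval for the 11 probe sets and for 10 genes of the 20S core particle (y axis), open points marking the dimmer of 2 probe sets and the dotted line the median of all tested probe sets at -0.17. The intervals of OsRPT5a, OsRPN11, OsRPN5 (brighter probe set), RPN-IB, OsPAA1 and OsPAG1 lie below 0, and those of RPT1A and both dimmer probe sets are the widest.

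OsRPN5 and RPN-IA each had a second, dimmer probe set, and in both genes the probe sets disagreed. The dimmer probe set of OsRPN5 had log2 values of 8.69, 8.97 and 8.42 at 45 °C, against 9.24, 7.33 and 9.11 at 40 °C. Its log2 change was 0.13 ± 0.48 (SE), and -0.48 without replicate 2 at 40 °C, where the brighter probe set gave -0.46. On that array the dimmer probe set lay 1.84 log2 units below the other 40 °C arrays while the brighter lay 0.20 above them. Over all tested probe sets, 8.36% lay at least 1 log2 unit below the mean of the other 40 °C arrays on that array and 5.92% at least 1 above.

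The gap between these probe sets moved with the 3-prime to 5-prime gap of the rice controls. For OsRPN5, dimmer minus brighter was 0.12 on the array with the smallest control difference (1.66, replicate 2 at 45 °C), then -0.11 (replicate 1 at 45 °C, also 1.66), -0.16 (replicate 1 at 40 °C), -0.34 (replicate 3 at 40 °C), -0.82 (replicate 3 at 45 °C) and -2.29 on the array with the largest (2.99, replicate 2 at 40 °C). The control difference was a mean over 5 transcript sets, with 2 left out. The gap of OsRPN5 was lower at every step in the order of this difference, which runs across both temperatures. Its first step lay between arrays nearly level in the control difference, at 1.656 and 1.658. For RPN-IA the same gap was -3.61, -3.06 and -4.71 at 45 °C, against -3.41, -5.39 and -4.15 at 40 °C, with 1 step out of that order. With the control difference as a covariate in the limma fit, the log2 changes of the dimmer and the brighter probe set of OsRPN5 were -0.53 and -0.42, that of RPT1A was -0.22, and those of OsRPT5a and OsRPN11 were -0.69 and -0.48. In the control difference only replicate 2 at 40 °C lay outside 1.66 to 2.03. The position of the probes along the transcripts was not used here, and the cause of the gap between probe sets was not tested.

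**Figure D3:**
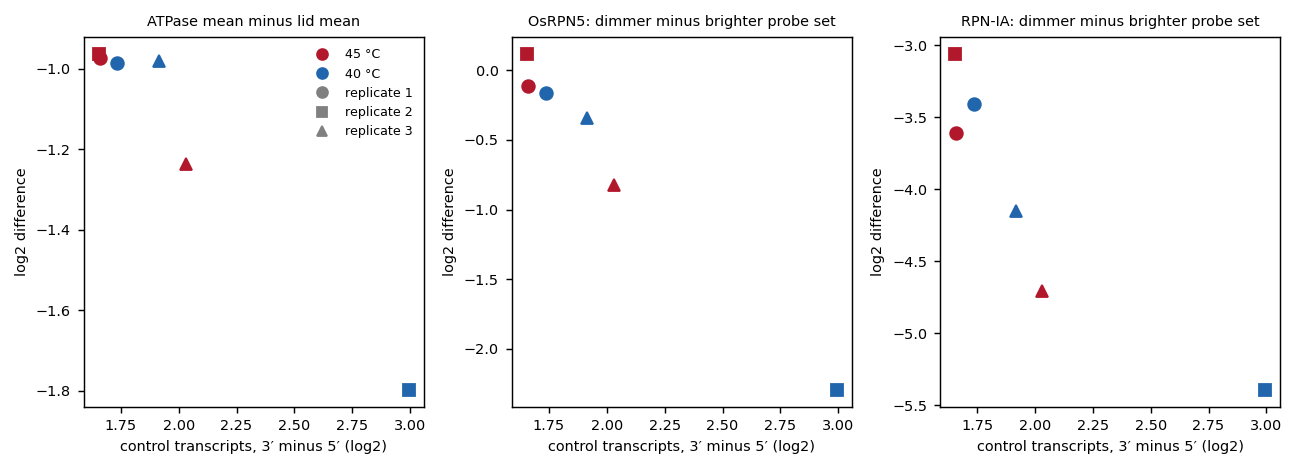
Differences of log2 values within each array (y axes) against the mean 3-prime minus 5-prime difference of the rice control transcripts (x axes, log2 units): the mean of the ATPase genes minus the mean of the lid genes (left), and the dimmer minus the brighter probe set of OsRPN5 (middle) and of RPN-IA (right). Colour gives the temperature and shape the replicate. Replicate 2 at 40 °C lies lowest in each panel, at -1.80, -2.29 and -5.39, and replicate 3 at 45 °C second lowest.

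The ribophorin genes that share the RPN prefix were also lower at 45 °C at their brightest probe sets. RPN-IB had log2 values of 8.53, 8.28 and 7.60 at 45 °C, against 8.56, 9.11 and 8.75 at 40 °C, with groups that did not overlap by a narrow margin. Its log2 change was -0.67 ± 0.28 (SE), with a limma adjusted p of 0.25. RPN-II had 8.89, 8.75 and 8.997 at 45 °C, against 9.13, 9.87 and 9.002 at 40 °C, so that the nearest arrays of the groups were almost level, and a change of -0.45 ± 0.24 (SE), or -0.18 without replicate 2 at 40 °C. RPN-IA had 9.09, 8.98 and 9.32 at 45 °C, against 9.31, 9.38 and 9.38 at 40 °C, groups that overlapped, and a change of -0.23 ± 0.15 (SE), with 0.30 ± 0.54 (SE) at its dimmer probe set. The median of the 3 genes, -0.45, was nearly that of the lid genes, against -0.17 for all tested probe sets. Lower values at 45 °C were common outside the proteasome, in 64.4% of all tested probe sets (76.2% at a mean level from 8 to 11). The groups did not overlap in 2 of the 3 genes, beside 17.8% (24.6% at that level) that were lower without overlap. After median centring RPN-IA was at 0.03, RPN-IB at -0.41 and RPN-II at -0.19.

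The 20S core particle, which the regulatory particle caps, was represented by 10 genes with all 10 tested. Of these, 9 were lower at 45 °C and 1 higher, beside 64.4% of all tested probe sets that were lower (76.2% at a mean level from 8 to 11), with changes from -0.57 to 0.002, and the median was -0.21, against -0.38 for the 6 regulatory particle genes. An unadjusted p under 0.05 was reached by 2 of the 10, both lower, beside 13.8% of all tested probe sets (17.5% at a mean level from 8 to 11), which is near the background, and none passed the adjusted threshold. The alpha-ring genes OsPAA1 (-0.57 ± 0.20 SE) and OsPAG1 (-0.35 ± 0.11 SE) had the smallest p, and were the 2 genes whose groups did not overlap, beside 17.8% (24.6% at that level). OsPAE1, also of the alpha ring, was the 1 higher gene, at 0.002 ± 0.21 (SE). These counts were taken on the deposited values without further scaling, and many of the changes were small. They include replicate 2 at 40 °C, and OsPAB1, OsPBC1 and PBF1 were lower only with that array. OsPAB1 was at 8.79 there, against 8.33 and 7.90 on the other 40 °C arrays and a 45 °C mean of 8.25. OsPBC1 was at 9.45, against 8.71 and 9.11, with a 45 °C mean of 9.07. PBF1 was at 9.38, against 8.97 and 9.46, with a 45 °C mean of 9.27. OsPBB1 and OsPAA1 were instead lowest on that array, at 9.06 and 9.42.

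Upstream of the proteasome, ubiquitin is activated, conjugated and ligated to substrates. Of 7 genes for ubiquitin, its relative RUB and conjugating enzymes, 6 were lower and 1 higher, beside 64.4% of all tested probe sets that were lower, with a median log2 change of -0.13 against -0.17 for all tested. None reached an unadjusted p of 0.05. RUB2 was at -0.43 ± 0.29 (SE), the ubiquitin extension gene UBQ2 at -0.21 ± 0.15 (SE) and the conjugating enzyme gene OsUBC5a at 0.15 ± 0.17 (SE). Of 13 ubiquitin ligase genes on the array, 8 reached the minimum, and all 8 were lower, beside the same 64.4%, with a median of -0.42 against -0.17. The U-box ligase genes OsPUB57 (-0.81 ± 0.22 SE) and OsPUB4 (-0.75 ± 0.21 SE) had the smallest p, each with a limma adjusted p of 0.179, and were the 2 of 8 whose groups did not overlap, beside 17.8% of all tested probe sets. The translation initiation factor gene eIF3k, part of a complex whose subunits share domains with the lid, was at -0.03 ± 0.13 (SE). Counts of the ubiquitin and ligase genes were likewise taken without further scaling and with replicate 2 at 40 °C included. The ligase gene SPL11 was lower only with that array. It was at 9.47 there, against 8.61 and 8.67 on the other 40 °C arrays and a 45 °C mean of 8.81. XBOS32 was at 5.91 there, against 4.29 and 4.52, with a 45 °C mean of 4.36. OsPUB72 and OsPUB12 were instead lowest on that array, at 8.57 and 6.92.

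Genes with a pattern most like that of OsRPT5a were sought among 1692 tested genes with a name other than a locus number, by Pearson correlation over the 6 arrays after subtracting each array's median. The closest were OsYchF1, a GTPase gene (0.995), OsPP2C54, a type 2C protein phosphatase gene (0.985), and the tonoplast aquaporin gene OsTIP2;2 (0.976), with log2 changes of -0.68, -1.24 and -0.51. For OsRPN11 they were the tubby-like gene OsTLP1 (0.987), the metal transporter gene HMA4 (0.986) and the transcription factor gene IDEF1 (0.985), with log2 changes of -0.65, -0.52 and -0.77. With this many genes and 6 arrays, values of this size describe these arrays only. OsRPT5a and OsRPN11 correlated with each other at 0.64 in the same way.

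OsRPT5a kept its direction under every setting tried, and OsRPN11, RPT1B and the brighter probe set of OsRPN5 did so as well. The log2 change of OsRPT5a ranged from -0.87 to -0.54 over 16 alternatives, and it passed the adjusted threshold in 1 of them, the limma fit with array weights (adjusted p = 0.0467, range over alternatives 0.0467 to 0.359), in which replicate 2 at 40 °C had a weight of 0.336 and replicate 3 at 40 °C of 3.74. OsRPN11 ranged from -0.55 to -0.20, with limma adjusted p from 0.0779 to 0.426, and OsRPN5 from -0.67 to -0.20, where -0.20 came from the mean of its probe sets. After median centring OsRPT5a was at -0.54, OsRPN11 at -0.20, OsRPN5 at -0.27 and RPT1B at -0.04.

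**Figure D4:**
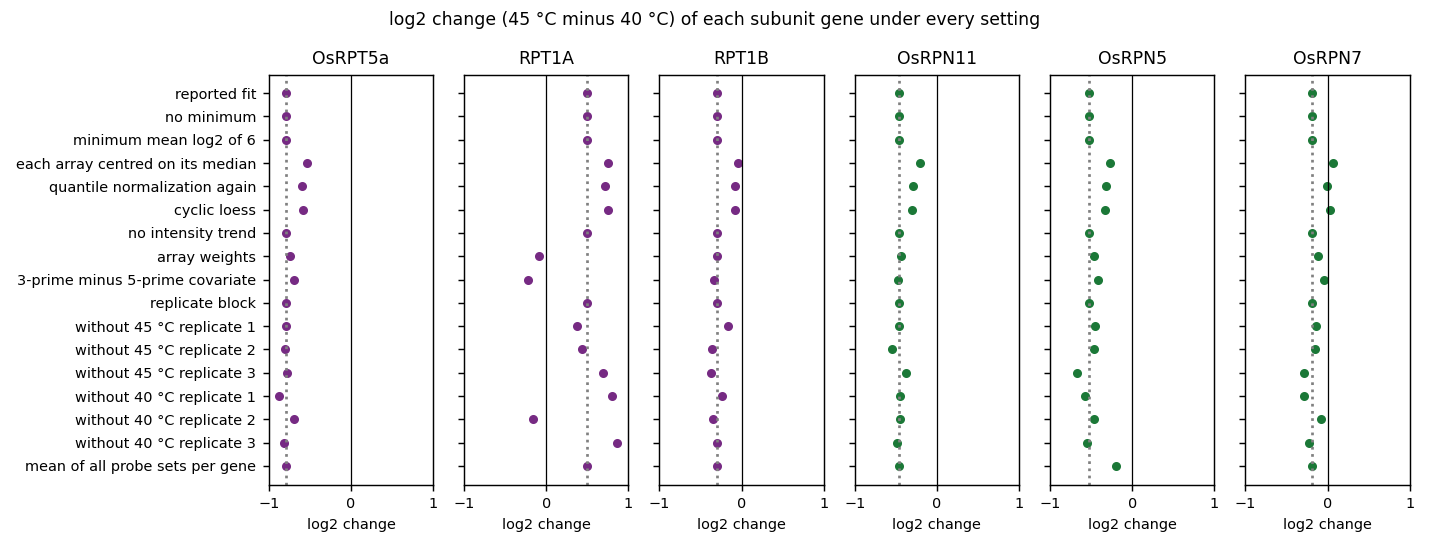
Log2 change, 45 °C minus 40 °C (x axes), of each of the 6 subunit genes under the reported fit (dotted line) and each of the other settings (y axis), with ATPase genes in purple and lid genes in green. OsRPT5a stays between -0.87 and -0.54, whereas RPT1A lies above 0 except with array weights, with the control transcript covariate and without replicate 2 at 40 °C.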

How the data were processed

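The authors deposited log2 values, which they made with GCRMA (version not stated), per the submitters' processing notes. All 6 value columns belonged to the samples. Genes came from the platform annotation (22436 probe sets with 1 gene, 95 with several, 34727 with none listed), and names from a table of assembly ASM3414082v1. Probe sets with a mean log2 of at least 4 entered limma 3.58.1 under R 4.3.3 (lmFit, eBayes with trend), 45 °C minus 40 °C, two-sided, with Benjamini-Hochberg adjustment over all 22214. The step was tested on simulated data of this comparison with 22214 probe sets: it recovered 9.30% of changes of 1 log2 unit and 56.4% of changes of 2, and made 3.20 false calls in an average table. The simulated noise was normal and alike on all arrays, with no deviating array and no general difference between groups. Both simulated sizes were larger than any change of a member, so these rates need not hold for the results above. A gene is given at its brightest probe set. Members and lists were chosen with earlier results of these data known. All member genes are named; from other lists, those of smallest p in each direction (up to 2). The ligase list lost a pattern that caught other families, and no deubiquitinase gene matched by symbol. Ribophorin genes were set apart after their synonyms were read. Same-numbered arrays of the 2 groups did not deviate together (correlations of -0.14 to 0.03).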

Additional observations from a re-analysis of the deposited data

How the results depend on the processing

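The adjusted limma threshold was passed by 0 probe sets in the reported fit (4256 at an unadjusted p under 0.05), 193 with array weights, 44 with the control transcript covariate and 0 to 69 when leaving out 1 array, 69 being reached without replicate 2 at 40 °C. The number of subunit genes past it was 1 with array weights, OsRPT5a, and 0 in all other alternatives, with the replicate number as a block (replicate block: OsRPT5a -0.79, adjusted p = 0.283; 0 probe sets past the threshold) and when leaving out 1 array (0 to 0) included. Arrays of one number shared only that number. RPT1A turned to -0.095 with array weights, to -0.22 with the covariate, with a range of -0.17 to 0.86 when 1 array was left out. The dimmer OsRPN5 probe set turned to -0.36 and -0.53 in those fits and ranged from -0.48 to 0.47, and that of RPN-IA turned to -0.026 and -0.37 and ranged from -0.23 to 0.73. OsRPN7 turned to 0.061 after median centring and 0.024 after cyclic loess. RPN-IA turned to 0.028 after centring and 0.036 with the mean of its probe sets. The RPN median of -0.46 was -0.29 when quantile-normalized again and -0.31 under cyclic loess. RPT minus RPN was 0.20, but -0.04 with array weights, -0.10 with the covariate and -0.07 to 0.33 when leaving out 1 array, below 0 without replicate 2 at 40 °C. The cause of these changes was not tested. Setting members matched through a synonym aside left no gene. Without detection calls, depth is read from the level alone, and 3 arrays a group limit the precision. Counting ribophorin genes as RPN was chosen after seeing the data.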
